A study of Mus musculus with 12 samples.

Results

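The comparison described here is that of drug-driven against vehicle-treated organotypic brain slices labelled Cre, with 3 libraries on each side, out of the 12 libraries of the study. Its members are the 13048 genes whose mean over the 12 libraries was at least 1 CPM (a gene's reads scaled to a library total of 1000000), out of 21967 genes in the deposited table. Slices were cut from mouse pups at postnatal day 6 and cultured for 8 days, and polyadenylated RNA was read as 150 bp pairs. Both groups were Mef2c fl/fl and heterozygous for CaMKIIα-Cre, a transgene whose promoter is active in forebrain excitatory neurons. The vehicle group received 1% DMSO with 1% water, and the treated group received 100 µM picrotoxin with 100 µM 4-aminopyridine. The slices without Cre were also Mef2c fl/fl and received the same vehicle or drugs, with 3 libraries in each group. They are used here for comparison, and their libraries also enter the expression filter and the estimate of spread behind the p-values. The sources used here do not state how long the drugs were applied, nor whether the 3 libraries of a group came from 3 separate animals. The Y-linked genes described below show that the libraries of a group did not all come from a single animal. The p-values reflect library-to-library spread, part of which may be technical.

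Picrotoxin closes the chloride channel of GABA-A receptors, 4-aminopyridine plugs potassium channels of the Kv1 and related types, and a slice bathed in both fires in prolonged synchronous bursts. In neurons, calcium entry and ERK and CREB signalling during such firing switch on immediate early genes, which need no new protein for their transcription. Many of these encode transcription factors that act on a later set of genes for synaptic proteins, secreted factors and inhibitors of the same signalling.

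The 6 libraries held 98930198 to 140390406 counted reads, and 3 reads in a library corresponded to 0.0214 to 0.0303 CPM. Mitochondrially encoded genes took 3.03% to 4.13% of the counted reads. Genes of neurons (Camk2a, Slc17a7, Snap25) and astrocytes (Gfap, Slc1a3) were expressed in all 6 libraries, while the neuronal tubulin gene Tubb3 was listed at 0 in all 12 and the myelin gene Mog lay below the filter. Y-linked genes were near 0 in replicate 1 of both groups and high in replicates 2 and 3 of both, so Y-linked expression was balanced between the groups. The level of the floxed gene goes against the label. Mef2c, a transcription factor gene, stood at 2143, 2209 and 2449 CPM in the vehicle libraries labelled Cre and at 2220.1, 1944 and 2304 CPM in the treated ones, all above the 883 to 1225 CPM of the 6 libraries without Cre. The treatment did not move Mef2c past the threshold (log2 change -0.07 ± 0.11 SE, limma adjusted p = 0.747). The table counts whole genes, so reads from a transcript that lacks the floxed exon would be counted too, and the state of the allele was not tested.

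The drugs raised a short list of genes, some of them by a large factor, and lowered a longer list, mostly by a small one. At an adjusted p below 0.05 in limma (Benjamini-Hochberg over all tested genes), 495 genes rose, which is 3.79% of those tested, and 1340 fell, which is 10.3%. Changes are given on the scale of log2 of CPM plus 1, which shrinks the change of a gene near 1 CPM. Of the genes that rose, 153 did so by more than 2-fold and 26 by more than 8-fold, with a median log2 change of 0.65. Only 19 of the genes that fell did so by more than 2-fold, and the median log2 change of all genes that fell was -0.39, against -0.03 over all tested genes. Summed over the genes that rose, the mean level went from 23100 to 50900 CPM, and over the genes that fell it went from 71800 to 55200 CPM. In 492 of the 495 rises every treated library lay above every vehicle library, as it did for 9.28% of all tested genes. The same held in the other direction for 1337 of the 1340 falls, against 20.1% of tested genes. This separation is no separate evidence, since the calls were made on these same libraries. The 3 same-numbered pairs gave median log2 changes of 0.87, 0.53 and 0.61 for the genes that rose, and treated replicate 1 was the highest treated library for 374 of them (75.6%, against 52.8% of all tested genes). The balance of rises and falls depends on the scaling. Rises made up 27.0% of the calls on CPM, 38.7% with median-ratio scaling (708 against 1122 falls) and 41.7% with edgeR's TMM on recovered reads (755 against 1054).

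**Figure D1:**
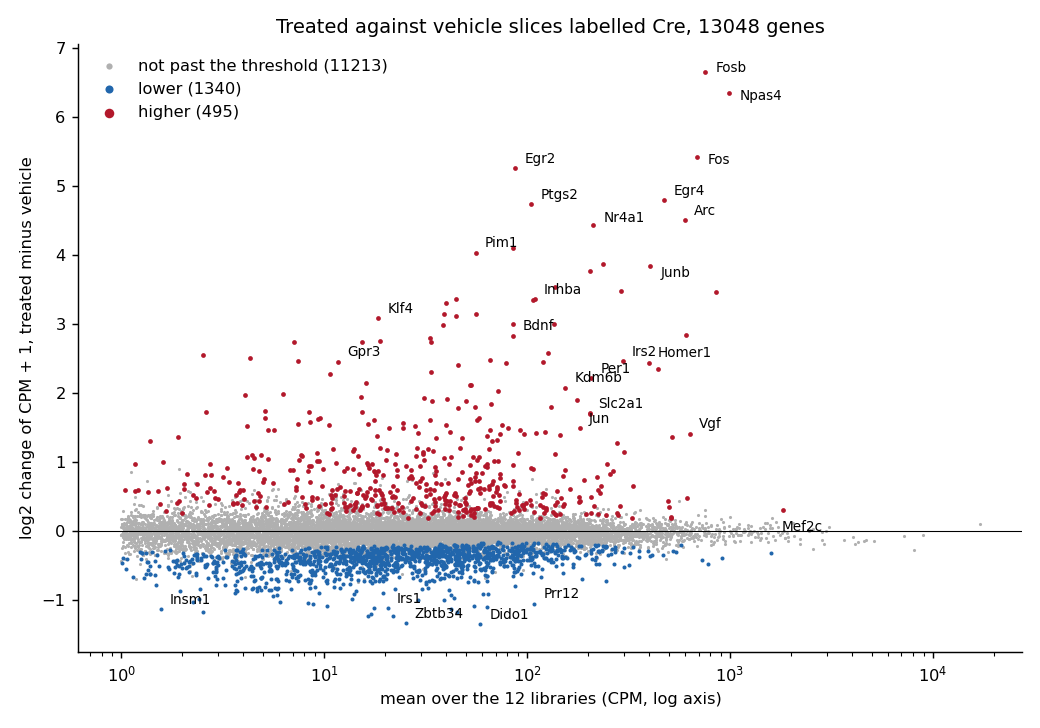
Change of each of the 13048 tested genes (y axis, log2 of CPM plus 1, treated minus vehicle libraries labelled Cre) against its mean over the 12 libraries (x axis, CPM, log scale), with one point a gene. The 495 genes that rose are red, the 1340 that fell are blue, and rises reach a log2 change of 6.66 (Fosb) while falls end at -1.35 (Dido1).

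Of 29 tested immediate early transcription factor genes 28 rose (96.6%, beside 3.79% of all tested genes). None fell, beside 10.3% of all tested genes, and the median log2 change was 2.74. This list and those below were written with earlier results of these data known. Summed over the 29 genes, the level went from 1029 to 1107 CPM in the vehicle libraries to between 10440 and 11220 CPM in the treated libraries. The steepest rise was that of Fosb, which encodes a partner of JUN proteins in the AP-1 complex (chromosome 7, 19302696 to 19310051, minus strand, GRCm38). It stood at 11.4, 12.95 and 8.13 CPM in the vehicle libraries and at 1213, 1132 and 1178 CPM in the treated ones. The treated values lay within a narrow band far above the vehicle values (log2 change 6.66 ± 0.32 SE, limma adjusted p = 3.67e-08). Npas4, a neuron-specific factor that responds to calcium and governs inhibitory synapses, went from 17.9, 24.6 and 15.2 CPM to 1623, 1632 and 1599 CPM (log2 change 6.35 ± 0.48 SE, limma adjusted p = 3.96e-06). Its treated libraries were nearly equal, and its vehicle libraries ranged more widely. Fos, the prototype of the group, was at 25.6, 26.7 and 20.04 CPM with vehicle and at 1189, 1049 and 990.3 CPM with drugs (log2 change 5.43 ± 0.25 SE, limma adjusted p = 2.01e-08).

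The 4 Egr genes, which encode zinc finger factors, all rose, and they started from unlike levels. Egr2 was at 3.17, 4.00 and 2.52 CPM in the vehicle libraries and at 172, 148 and 159 CPM in the treated ones (log2 change 5.26 ± 0.15 SE, limma adjusted p = 7.81e-10). Egr1 and Egr3 were already above 100 CPM with vehicle and reached 1177, 1255 and 1344 CPM and 1412, 996 and 1043 CPM, and their log2 changes were smaller at 3.47 and 2.85. Egr4 went from 22.4, 23.8 and 24.6 CPM to 628, 733 and 692 CPM. The orphan nuclear receptor genes Nr4a1 and Nr4a3 rose by 4.43 and 3.87 on the log2 scale, with treated values of 421, 314 and 356 CPM and 349, 365 and 369.7 CPM. Nr4a2, the family member that also marks deep cortical neurons, rose by 3.35 on the log2 scale, and its 3 treated libraries spread from 146 to 211 CPM. Within the JUN family the log2 change was uneven: Junb rose by 3.84 to 601, 605 and 575 CPM, Jund by 1.15 to 327, 415 and 346 CPM, and Jun by 1.50 to 227, 159 and 152 CPM. Genes at low levels in vehicle slices rose as well, among them Klf4 (a pluripotency factor also induced in neurons) from 1.50, 1.61 and 1.75 CPM to 25.01, 19.7 and 19.3 CPM, and Myc from 4.50, 4.52 and 4.83 CPM to 21.2, 12.2 and 16.9 CPM. The one member that did not pass was Klf10, a TGF-β-induced factor, at 38.2, 38.7 and 36.3 CPM with vehicle and 38.1, 29.1 and 36.4 CPM with drugs (log2 change -0.13, limma adjusted p = 0.440).

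**Figure D2:**
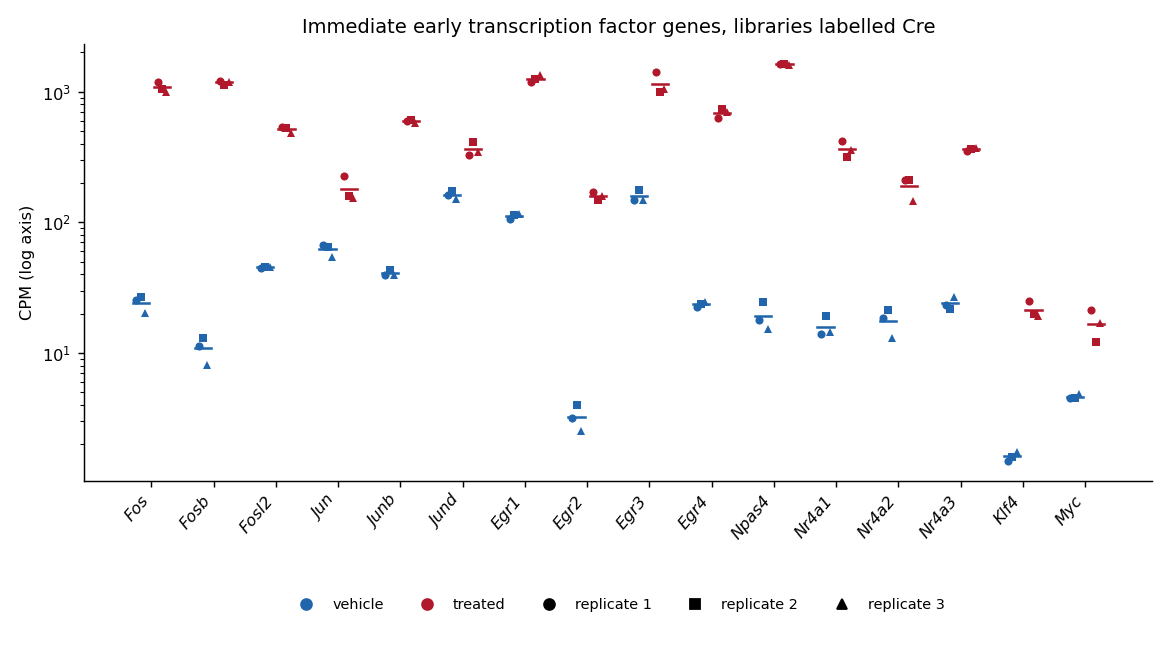
Level of 16 immediate early transcription factor genes (y axis, CPM, log scale) in each vehicle (blue) and treated (red) library labelled Cre; marker shapes are replicates 1 to 3 and bars are group means. For every gene shown the 3 treated libraries lie above the 3 vehicle libraries, by the widest factor in Fosb and Npas4 and by the narrowest in Jund.

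Many immediate early promoters carry the cAMP response element bound by CREB, so the promoters of genes that rose were searched for it. RefSeq windows from 250 bases before to 50 bases after the start (GRCm38.p6) were used for the 7740 tested genes with exactly 1 such window. The short form of the element, TGACG on either strand, was present in 32.8% of these windows, in 144 of the 293 windows of genes that rose (49.1%), in 51 of the 92 windows of genes that rose more than 2-fold (55.4%) and in 220 of the 811 windows of genes that fell (27.1%). The full element TGACGTCA, whose matches always hold the short form, was in 3.44% of all windows and in 8.70% of those of genes that rose more than 2-fold. The TATA box, searched as TATAAA on either strand, was in 6.63% of all windows, 15.0% of those of genes that rose, 22.8% of those past 2-fold and 5.06% of those of genes that fell. The EGR motif GCGNGGGCG was in 11.4% of all windows, 26.1% of those of genes that rose past 2-fold and 11.8% of those of genes that fell. Matches to the MEF2 site were in 1.42% of all windows, 2.39% of those of genes that rose, 4.35% of those past 2-fold (4 of 92) and 1.97% of those of genes that fell. Of the 19 windows of immediate early transcription factor genes, 15 held the short cAMP element, 9 the EGR motif, 5 the TATA box and 4 the MEF2 site. The full element TGACGTCA and the AP-1 motif TGANTCA were in 0 of these 19. With a window of 200 bases before the start the short element was in 30.1% of all windows and in 43.7%, 51.1% and 24.7% of those of the same 3 sets. These shares describe letters in a window, and median GC content also differed, at 64.7% in windows of genes that rose and 61.7% over all windows, a difference whose part in the shares was not tested.

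**Figure D3:**
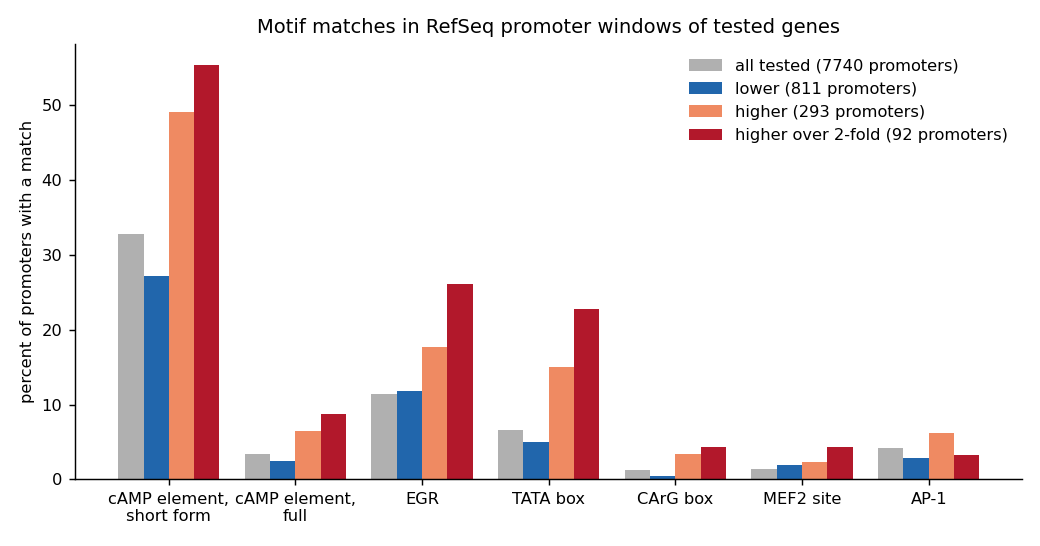
Percent of RefSeq promoter windows (y axis) that hold a match to each of 7 motifs (x axis), for all tested genes (grey), genes that fell (blue), genes that rose (orange) and genes that rose more than 2-fold (red). The short cAMP element goes from 32.8% of all windows to 55.4% of those past 2-fold, and the TATA box from 6.63% to 22.8%, while AP-1 (TGANTCA) stays between 2.84% and 6.14% in the 4 sets.

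The windows of 4 genes that rose and of 1 that fell are shown for the placement of the element, each read along its own gene, with every TGACG or its reverse complement CGTCA in capitals. They were picked by hand and do not stand for their sets, since 149 of the 293 windows of genes that rose lack the short element and 220 of the 811 windows of genes that fell hold it.
Fos promoter, chr12:85473640-85473939, plus strand: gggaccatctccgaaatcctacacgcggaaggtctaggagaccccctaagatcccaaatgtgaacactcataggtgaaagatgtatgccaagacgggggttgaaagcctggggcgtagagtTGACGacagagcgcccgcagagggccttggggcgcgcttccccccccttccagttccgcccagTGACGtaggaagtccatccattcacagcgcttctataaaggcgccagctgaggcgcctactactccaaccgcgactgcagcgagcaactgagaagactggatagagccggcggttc
Npas4 promoter, chr19:4989922-4990221, minus strand: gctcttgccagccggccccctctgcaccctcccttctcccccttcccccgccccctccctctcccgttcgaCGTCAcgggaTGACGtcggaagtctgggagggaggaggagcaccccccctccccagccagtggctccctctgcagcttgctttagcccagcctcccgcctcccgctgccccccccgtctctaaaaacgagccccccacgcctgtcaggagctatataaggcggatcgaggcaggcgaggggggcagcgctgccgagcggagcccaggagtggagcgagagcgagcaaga
Nr4a3 promoter, chr4:48045055-48045354, plus strand: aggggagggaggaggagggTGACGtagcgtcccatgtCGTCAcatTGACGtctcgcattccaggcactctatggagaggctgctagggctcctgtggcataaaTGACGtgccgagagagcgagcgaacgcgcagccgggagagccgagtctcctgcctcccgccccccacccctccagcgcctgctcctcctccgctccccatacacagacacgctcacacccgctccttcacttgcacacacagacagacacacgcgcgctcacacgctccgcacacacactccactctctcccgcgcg
Dusp1 promoter, chr17:26508423-26508722, minus strand: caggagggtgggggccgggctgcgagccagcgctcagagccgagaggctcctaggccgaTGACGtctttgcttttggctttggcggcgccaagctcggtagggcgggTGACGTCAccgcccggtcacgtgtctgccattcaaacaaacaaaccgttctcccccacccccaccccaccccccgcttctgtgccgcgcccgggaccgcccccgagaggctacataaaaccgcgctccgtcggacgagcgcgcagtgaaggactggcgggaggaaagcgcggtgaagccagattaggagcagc
Zbtb34 promoter, chr2:33431275-33431574, minus strand: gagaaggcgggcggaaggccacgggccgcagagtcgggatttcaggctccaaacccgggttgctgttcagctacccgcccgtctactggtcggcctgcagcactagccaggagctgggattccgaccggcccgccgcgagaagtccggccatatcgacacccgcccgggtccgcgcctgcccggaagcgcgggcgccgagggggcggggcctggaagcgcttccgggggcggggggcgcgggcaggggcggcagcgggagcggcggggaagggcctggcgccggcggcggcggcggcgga
The Fos window holds 2 short elements, which begin 129 and 66 bases before the start, and a TATA box that begins 33 bases before it. In Npas4 the 2 short elements begin 179 and 169 bases before the start and lie on opposite strands. Nr4a3 has 4 of them, and Dusp1 holds the full element 143 to 136 bases before its start and 1 more short form upstream. The window of Zbtb34, the Zbtb gene with the steepest fall, holds none.

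Immediate early genes listed as effectors, apart from the transcription factor genes above, also rose. Of 26 tested immediate early effector genes 24 rose (92.3%, beside 3.79% of all tested genes). None fell, beside 10.3% of all tested genes, and the median log2 change was 1.99. Arc, whose product drives the removal of AMPA receptors from synapses, went from 43.1, 66.4 and 36.1 CPM to 1231, 1006 and 1039.6 CPM (log2 change 4.50 ± 0.26 SE, limma adjusted p = 1.55e-07). Ptgs2, which encodes the prostaglandin synthase COX-2, went from 4.57, 3.99 and 3.18 CPM to 122, 174 and 100.1 CPM, and treated replicate 2 was the highest (log2 change 4.73 ± 0.25 SE, limma adjusted p = 7.82e-08). The kinase gene Pim1 rose with a small error, from 5.52, 5.66 and 5.10 CPM to 111, 104 and 98.2 CPM (log2 change 4.04 ± 0.09 SE, limma adjusted p = 7.84e-11). Nptx2, a secreted pentraxin that clusters AMPA receptors on interneurons, rose from 192, 225 and 181 CPM to 1236, 900.2 and 933 CPM.

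Several effectors were far higher in treated replicate 1 than in the other treated libraries. Homer1, whose short isoform loosens postsynaptic scaffolds and is not told apart from the long one here, was at 128, 145 and 125 CPM with vehicle and 1129.7, 526 and 642 CPM with drugs. Gadd45g, which acts in DNA repair and demethylation, was at 5.46, 9.69 and 5.61 CPM with vehicle and 119, 28.5 and 43.2 CPM with drugs. In both genes treated replicate 1 lay apart from the others, and all treated libraries were still above all vehicle libraries (log2 changes 2.44 ± 0.29 and 2.81 ± 0.53 SE, limma adjusted p = 1.11e-04 and 0.00320). Rasgrp1, a Ras activator gene, did not pass, with a log2 change of -0.13 (limma adjusted p = 0.389).

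Many genes whose products restrain ERK and cAMP signalling also rose, and the activity of that signalling was not tested. Of 23 tested feedback regulators 16 rose (69.6%, beside 3.79% of all tested genes). None fell, beside 10.3% of all tested genes, and the median log2 change was 0.99. The 3 largest rises were those of MAP kinase phosphatase genes. Dusp1 went from 6.63, 6.13 and 5.38 CPM to 143, 107 and 110.5 CPM (log2 change 4.10 ± 0.15 SE, limma adjusted p = 2.41e-09), and Dusp4 and Dusp5 rose by 3.15 and 2.99 on the same scale. Dusp6, whose product is specific for ERK, rose by 2.43 on the log2 scale with treated values of 169, 97.2 and 127 CPM. Errfi1, which encodes an inhibitor of the EGF receptor, rose by 2.48 on the log2 scale, and the Sprouty gene Spry2, whose product blocks ERK activation downstream of receptor tyrosine kinases, by 1.50. Rgs2, an inhibitor of Gq signalling, went from 29.6, 35.3 and 31.6 CPM to 205, 179.6 and 159.7 CPM. On the cAMP side, the salt-inducible kinase gene Sik1, which restrains CREB coactivators, went from 14.9, 13.04 and 14.2 CPM to 80.7, 80.1 and 75.9 CPM (log2 change 2.41 ± 0.08 SE, limma adjusted p = 1.74e-09). The phosphodiesterase gene Pde4d, Sik2 and Crem rose by 0.79, 1.54 and 0.60 on the same scale. The Crem call is lost without vehicle replicate 1 or 3 (limma adjusted p = 0.0628 to 0.0674). Pde4b, Pde7b, Pde10a and Sik3 did not pass, with log2 changes of 0.13, -0.001, -0.06 and 0.10.

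Of 29 tested genes for secreted factors and the enzymes that process them, 6 rose (20.7%, beside 3.79% of all tested genes). Only 1 fell (3.45%, beside 10.3%), and the median log2 change was 0.28. In 13 of the 29 all treated libraries lay above all vehicle libraries, which held for 9.28% of all tested genes, and with median-ratio scaling or edgeR's TMM 9 members rose. Inhba, the activin A subunit gene, was at 26.3, 28.4 and 21.9 CPM with vehicle and 341, 247 and 234 CPM with drugs (log2 change 3.36 ± 0.27 SE, limma adjusted p = 3.88e-06). Bdnf, the neurotrophin gene induced by calcium entry, was at 22.7, 26.6 and 19.02 CPM with vehicle and 184, 165 and 152 CPM with drugs (log2 change 2.83 ± 0.17 SE, limma adjusted p = 2.33e-07). In both, no library of one group reached the range of the other. Pcsk1, a prohormone convertase gene, and Vgf, which encodes a granin-like neuropeptide precursor, rose by 2.12 and 1.41 on the log2 scale. Adcyap1, which encodes the neuropeptide PACAP, rose by 1.19 on the log2 scale from below 10 CPM. Nrn1, a neuritin gene, rose by 0.58 on the log2 scale (limma adjusted p = 0.0126), and that call is lost without vehicle replicate 3 (limma adjusted p = 0.0585). The member that fell was Inhbb, the subunit gene of activin B, from 16.99, 16.5 and 13.4 CPM to 9.85, 11.9 and 9.82 CPM (log2 change -0.52 ± 0.10 SE, limma adjusted p = 0.00363).

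Several repressors of the circadian clock rose. Of 21 tested clock genes 9 rose (42.9%, beside 3.79% of all tested genes) and 1 fell (4.76%, beside 10.3%), with a median log2 change of 0.11. Per1, a clock repressor, went from 70.4, 69.6 and 78.5 CPM to 354, 334 and 339 CPM, nearly equal among treated libraries (log2 change 2.22 ± 0.08 SE, limma adjusted p = 1.74e-09). Per2 went from 19.8, 21.8 and 18.9 CPM to 79.6, 51.5 and 61.6 CPM, and Ciart, another repressor, from 13.2, 13.9 and 15.00 CPM to 66.2, 48.8 and 53.6 CPM. Nfil3, a repressor of D-box genes, rose by 2.31, and Bhlhe40, Nr1d1, Cry2 and Cry1 rose by 1.12, 0.89, 0.65 and 0.41 on the log2 scale. The member that fell was Arntl, which encodes the activator BMAL1, from 23.8, 23.2 and 23.5 CPM to 20.5, 14.9 and 16.9 CPM (log2 change -0.42 ± 0.10 SE, limma adjusted p = 0.0145). The Arntl call is lost without vehicle replicate 1 or treated replicate 3 (limma adjusted p = 0.0548 at the most), and 2 clock genes fell without treated replicate 1.

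More stress and fuel genes rose than fell. Of 23 heat shock genes 5 rose (21.7%, beside 3.79% of all tested genes) and none fell, and in 12 of the 23 the treated libraries lay above all vehicle libraries, beside 9.28% of all tested genes. With median-ratio scaling or edgeR's TMM 8 heat shock genes rose. The rises were led by the co-chaperone genes Dnajb1, from 56.3, 58.5 and 56.5 CPM to 243, 213 and 194 CPM, and Dnajb5, which rose by 1.40 on the log2 scale. Of 27 genes from the unfolded protein and integrated stress responses 6 rose (22.2%) and none fell, and in 10 the treated libraries lay above all vehicle libraries. Among the 6 was Atf4, the central factor of that response, at 26.1, 36.3 and 30.9 CPM with vehicle and 109, 52.2 and 66.2 CPM with drugs (log2 change 1.20 ± 0.24 SE, limma adjusted p = 0.00423). Its highest value was again that of treated replicate 1, and 1 member of that list fell when any one treated library was left out. Of 30 genes for glucose uptake and glycolysis 3 rose (10%) and none fell, and in 11 the treated libraries lay above all vehicle libraries. The 3 that rose act at entry or control points of the pathway. Slc2a1, the glucose transporter gene of the blood-brain barrier and glia, went from 93.5, 84.9 and 103 CPM to 316, 309 and 298 CPM (log2 change 1.71 ± 0.14 SE, limma adjusted p = 3.57e-06). The neuronal transporter gene Slc2a3 rose by 0.79, and Pfkfb3, whose product makes the activator of phosphofructokinase, by 0.96, both on the log2 scale. Without treated replicate 2 the glycolytic count is 6. None of 40 nuclear genes of oxidative phosphorylation, 13 mitochondrially encoded genes and 41 cytosolic ribosomal protein genes passed in either direction, with median log2 changes of 0.06, -0.07 and 0.05; leaving out vehicle replicate 2 gave 2 rises in the first list.

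Among the 36 gene lists described here, those of Zbtb factors and of histone modifiers held the largest shares of falls. Of 35 tested Zbtb genes, which encode zinc finger factors with a BTB domain, 12 fell (34.3%, beside 10.3% of all tested genes). Another 3 rose (8.57%, beside 3.79%). The median log2 change was -0.25, and 10 to 15 fell when one library labelled Cre was left out. Zbtb34 (chromosome 2, 33406108 to 33431324, minus strand) was at 30.8, 30.4 and 37.1 CPM with vehicle and 16.6, 8.25 and 13.7 CPM with drugs (log2 change -1.33 ± 0.18 SE, limma adjusted p = 3.34e-04). Zbtb5 and Zbtb44 fell by 0.76 and 0.73 on the log2 scale, and Zbtb11 rose from 32.8, 32.03 and 31.8 CPM to 77.7, 45.8 and 58.2 CPM. Of 304 tested genes whose symbol is Zfp and a number, a group defined after its values were seen, 148 fell and 10 rose. These are 48.7% and 3.29% of the group, beside 10.3% and 3.79% of all tested genes, and the median log2 change was -0.29. Leaving out one library labelled Cre gave 114 to 168 falls. Their summed level was 5905 to 6043 CPM in the vehicle libraries and 4895 to 5583 CPM in the treated ones. That gap is no separate evidence, since the group was defined with these values known. Zfp39 went from 11.9, 12.6 and 13.1 CPM to 5.60, 5.12 and 5.88 CPM, and Zfp84 from 18.95, 16.7 and 18.7 CPM to 8.76, 8.43 and 8.75 CPM. Zfp462, which encodes a chromatin-bound factor needed in brain development, went from 44.6, 41.9 and 42.7 CPM to 24.7, 18.5 and 20.6 CPM. Zinc finger genes have many close copies, and how reads that match several copies were counted is not given in the sources used here.

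Of 51 tested genes for histone methyltransferases, acetyltransferases, demethylases and remodellers, 15 fell (29.4%, beside 10.3% of all tested genes). Another 2 rose (3.92%, beside 3.79%), and the median log2 change was -0.18. Without treated replicate 1 the count of falls is 24, and without treated replicate 2 that of rises is 4. Dido1, which encodes a PHD finger protein that reads histone H3 methylation (chromosome 2, 180657964 to 180709999, minus strand), had the largest fall on the log2(CPM + 1) scale, from 89.5, 91.5 and 89.03 CPM to 41.9, 27.6 and 36.1 CPM (log2 change -1.35 ± 0.12 SE, limma adjusted p = 1.15e-05). As a ratio of mean CPM, treated to vehicle, Dido1 stood at 0.391, and some genes at lower CPM had smaller ratios, among them Insm1 (0.242) and Npy2r (0.301). Treated replicate 2 was the lowest in Dido1. All treated libraries lay below all vehicle libraries, which the rule that named the largest falls required. The paired acetyltransferase genes Crebbp and Ep300, whose products are recruited by CREB, went from 78.5, 67.5 and 74.1 CPM to 49.6, 44.8 and 44.99 CPM and from 80.98, 81.6 and 80.2 CPM to 58.4, 44.8 and 52.8 CPM. Their log2 changes were -0.65 ± 0.08 and -0.64 ± 0.11 SE (limma adjusted p = 1.26e-04 and 0.00146). The methyltransferase gene Setd1b fell by 0.74 on the log2 scale and the remodeller genes Arid1a and Chd8 each by 0.50 on that scale. The 2 that rose both encode demethylases that remove repressive histone marks: Kdm6b went from 63.4, 63.7 and 72.9 CPM to 324, 254 and 281 CPM (log2 change 2.08 ± 0.10 SE, limma adjusted p = 2.01e-08), and Kdm7a from 22.9, 22.3 and 20.1 CPM to 83.9, 48.3 and 55.5 CPM. All of these values are shares of a library's reads, and in whole slices fewer cells of a type and less RNA per cell cannot be told apart.

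**Figure D4:**
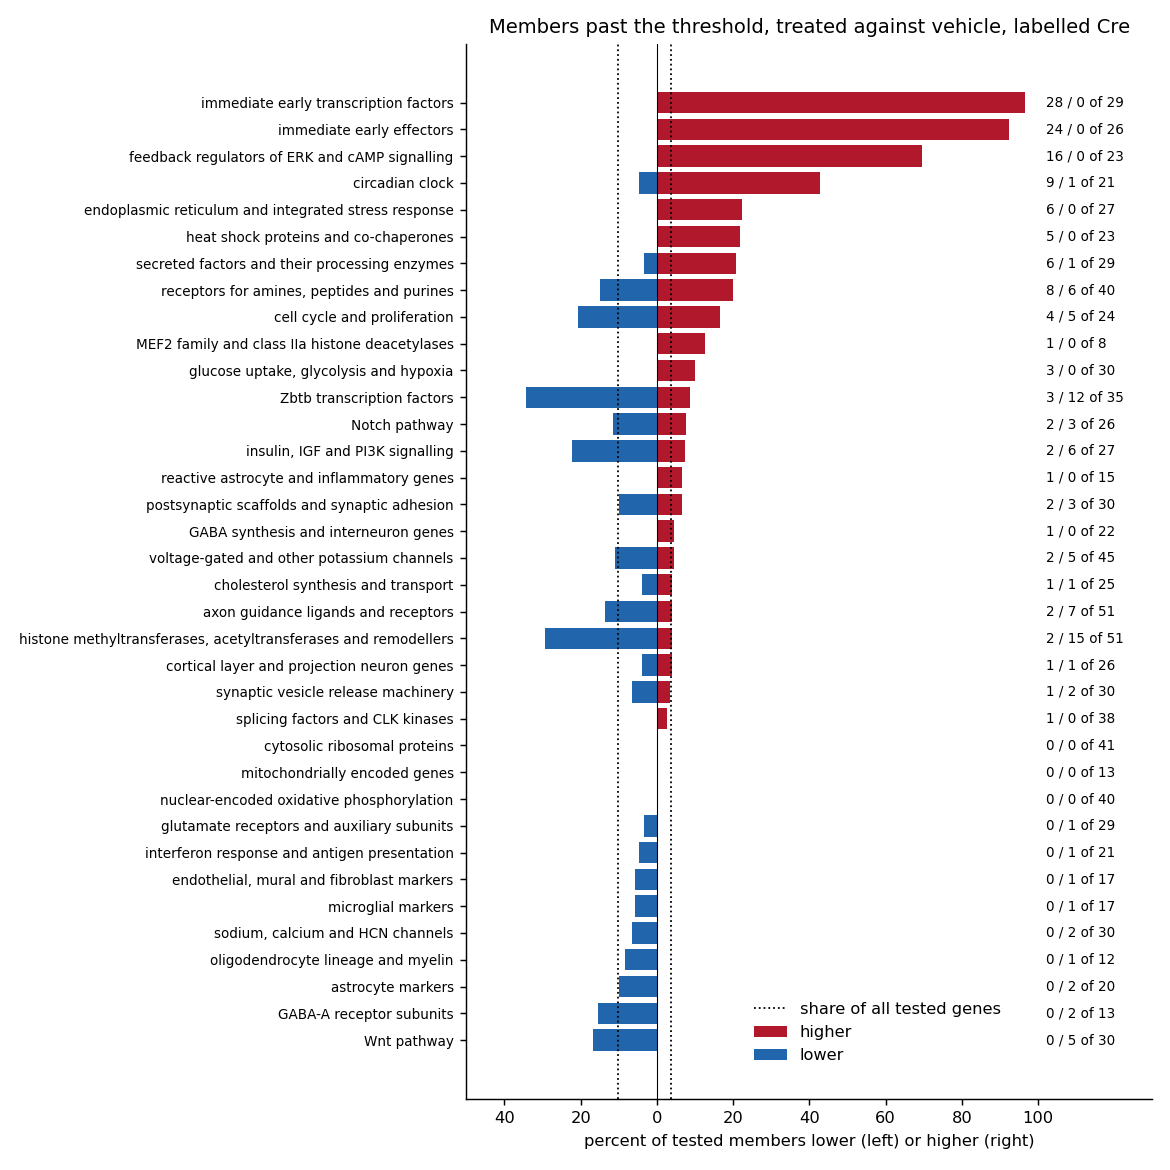
Percent of the tested members of each of 36 gene lists (y axis) that rose (red, to the right) or fell (blue, to the left) in treated against vehicle libraries labelled Cre, with the counts written as rose / fell of tested. Dotted lines mark 3.79% and 10.3%, the shares over all tested genes; immediate early lists lie far to the right, and the Zbtb and histone lists reach furthest to the left.

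The other large falls were scattered over functions. Amer3, a relative of the WNT regulator genes Amer1 and Amer2, had the smallest SE of the 25 largest falls, from 30.1, 30.4 and 30.5 CPM to 11.7, 12.7 and 12.7 CPM (log2 change -1.23 ± 0.06 SE, limma adjusted p = 5.53e-08). Lzts1, which encodes a postsynaptic leucine zipper protein, went from 94.8, 90.9 and 104 CPM to 42.97, 43.7 and 47.7 CPM. Nrip1, a nuclear receptor corepressor gene, went from 71.2, 62.6 and 67.5 CPM to 32.4, 29.3 and 31.8 CPM. Dclk3, a doublecortin-like kinase gene, was at 61.3, 59.2 and 60.9 CPM with vehicle and 27.96, 26.5 and 26.8 CPM with drugs. In each of these genes the lowest vehicle library exceeded the highest treated library. The rule that named the largest falls required this, so it is no separate evidence. Mycn fell while its relative Myc rose, at 15.2, 15.9 and 17.4 CPM with vehicle and 8.11, 5.81 and 7.59 CPM with drugs (log2 change -1.08 ± 0.13 SE, limma adjusted p = 1.53e-04). Insm1, a factor of neuroendocrine and newborn neurons, fell by 1.13 on the log2 scale from below 3 CPM.

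Receptor genes moved in both directions. Of 40 tested receptors for amines, peptides and purines 8 rose (20%, beside 3.79% of all tested genes) and 6 fell (15%, beside 10.3%). The median log2 change was -0.02, and the summed level was 1281 to 1344 CPM with vehicle and 1294 to 1326 CPM with drugs. Gpr3, a receptor that activates Gs without a known ligand, went from 3.53, 3.88 and 3.58 CPM to 26.7, 23.5 and 23.5 CPM (log2 change 2.45 ± 0.10 SE, limma adjusted p = 8.65e-09), and its close relative Gpr6 from 2.51, 2.65 and 3.12 CPM to 1.28, 1.05 and 0.934 CPM (log2 change -0.85 ± 0.13 SE, limma adjusted p = 8.82e-04). The somatostatin receptor gene Sstr2 rose from 12.1, 11.3 and 8.63 CPM to 23.6, 29.9 and 18.8 CPM, whereas Sstr3, whose product sits on neuronal cilia, fell from 32.04, 37.99 and 34.6 CPM to 17.9, 19.3 and 19.9 CPM. The Sstr2 call (limma adjusted p = 0.0115) is lost without vehicle replicate 3 (limma adjusted p = 0.0559), and the Sstr3 call held without any one library (log2 change -0.84 ± 0.08 SE, limma adjusted p = 1.56e-05). The β1-adrenergic receptor gene Adrb1 and the muscarinic receptor gene Chrm4 rose by 1.16 and 0.97 on the log2 scale. The nociceptin receptor gene Oprl1 went from 58.8, 58.2 and 59.5 CPM to 27.2, 31.8 and 30.3 CPM (log2 change -0.96 ± 0.07 SE, limma adjusted p = 1.09e-06), and Npy2r, a neuropeptide Y receptor gene, fell by 1.03 on the log2 scale.

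The insulin receptor substrate genes also moved apart. Of 27 tested insulin, IGF and PI3K genes 2 rose (7.41%, beside 3.79% of all tested genes) and 6 fell (22.2%, beside 10.3%). Leaving out vehicle replicate 1, 2 or 3 or treated replicate 3 left 3 falls, and 1 gene rose without vehicle replicate 2. Irs2 (chromosome 8, 10984681 to 11008458, minus strand), which couples insulin and IGF receptors to PI3K, was at 79.7, 81.1 and 84.2 CPM with vehicle and 456, 447 and 462 CPM with drugs (log2 change 2.46 ± 0.08 SE, limma adjusted p = 7.94e-10). Irs1 (chromosome 1, 82233101 to 82291416, minus strand), which does the same for the same receptors, was at 28.3, 22.7 and 26.8 CPM with vehicle and 13.1, 8.50 and 13.2 CPM with drugs (log2 change -1.12 ± 0.14 SE, limma adjusted p = 1.88e-04). The groups did not overlap in either gene. Pik3r1, the regulatory subunit gene of PI3K, fell from 238, 221 and 207 CPM to 139, 135 and 135 CPM.

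**Figure D5:**
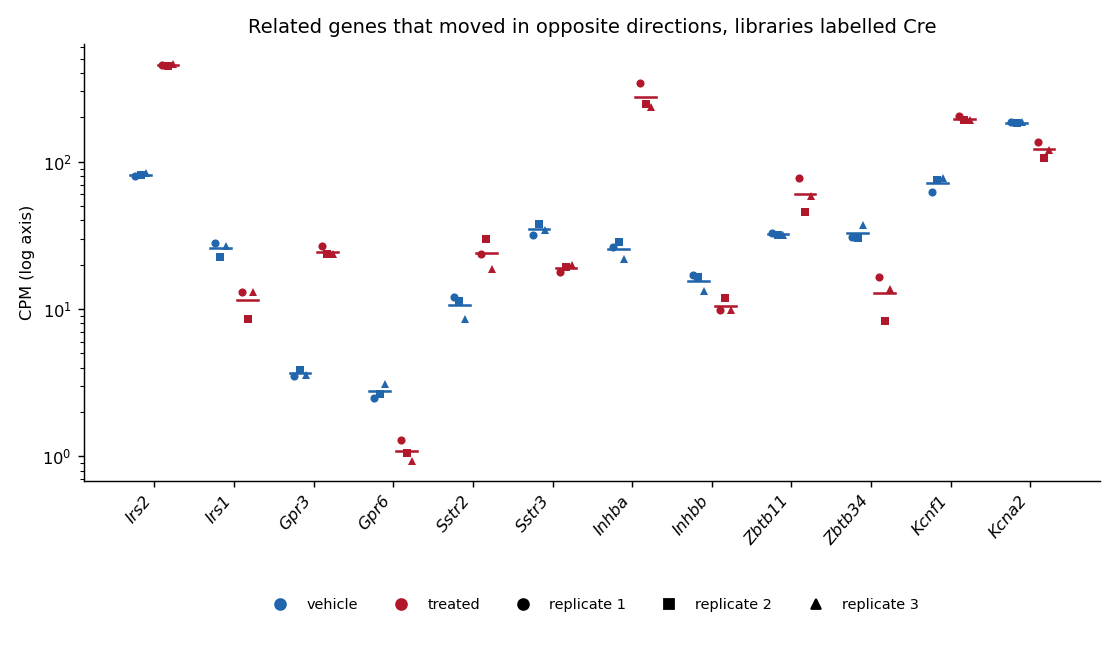
Level (y axis, CPM, log scale) in each vehicle (blue) and treated (red) library labelled Cre of 6 pairs of related genes, side by side, chosen after their values were seen because one rose and the other fell; marker shapes are replicates 1 to 3 and bars are group means. Irs2 goes from at most 84.2 CPM to at least 447 CPM, Irs1 from at least 22.7 CPM to at most 13.2 CPM, and treated and vehicle libraries do not overlap in any gene shown.

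Counts of passing genes for the channels on which the drugs act are to be read against the 3.79% of all tested genes that rose and the 10.3% that fell. Of 13 tested GABA-A receptor subunit genes none rose and 2 fell by small amounts, Gabrb1 and Gabrb2, with log2 changes of -0.20 and -0.27 (limma adjusted p = 0.0310 and 0.0134). Leaving out vehicle replicate 2 or 3 removed both calls (limma adjusted p of 0.0506 to 0.143 for Gabrb1 where lost, over 6 libraries left out in turn, and 0.0538 to 0.0560 for Gabrb2), and leaving out vehicle replicate 1, treated replicate 2 or treated replicate 3 removed that of Gabrb1. Without treated replicate 2, 1 subunit gene rose. Of 45 potassium channel genes 2 rose (4.44%) and 5 fell (11.1%), shares near those of all tested genes, with a median log2 change of -0.06, and the falls numbered 2 to 8 when one library labelled Cre was left out, with 2 falls without vehicle replicate 1 or treated replicate 3, 3 without vehicle replicate 2 or 3 and 8 without treated replicate 1. The rises numbered 1 without vehicle replicate 1 or 2 or treated replicate 1. Kcna2, a Kv1 subunit gene of the kind that 4-aminopyridine blocks, fell from 186, 183 and 185 CPM to 137, 106 and 121 CPM (log2 change -0.61 ± 0.08 SE, limma adjusted p = 3.50e-04). Kcnf1, which encodes a silent subunit that modifies Kv2 channels, rose from 62.1, 75.5 and 77.7 CPM to 206, 191 and 191 CPM (log2 change 1.44 ± 0.16 SE, limma adjusted p = 6.55e-05). Of 30 sodium, calcium and HCN channel genes 2 fell and none rose. One was Scn3a, an early sodium channel gene, from 58.4, 54.9 and 58.7 CPM to 39.00, 35.5 and 37.8 CPM (log2 change -0.60 ± 0.06 SE, limma adjusted p = 1.45e-05), and the other was Cacna1i, a T-type calcium channel gene, which fell by 0.41 on the log2 scale. Without treated replicate 1 that count is 4.

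Synaptic genes are read against the same shares of 3.79% and 10.3%. Of 29 glutamate receptor genes 1 fell, Grin2a, an NMDA receptor subunit gene, from 188, 183 and 169 CPM to 145, 125 and 118 CPM (log2 change -0.48 ± 0.09 SE, limma adjusted p = 0.00317), and without treated replicate 1 or 2 the count was 4 or 3. Of 30 vesicle release genes 1 rose (3.33%) and 2 fell (6.67%), among them Syt4, an activity-induced synaptotagmin gene, from 146, 131 and 166 CPM to 412, 319 and 349 CPM (log2 change 1.28 ± 0.11 SE, limma adjusted p = 5.15e-06), and Sv2b, a vesicle glycoprotein gene, from 294, 308 and 275 CPM to 203, 219 and 208 CPM (log2 change -0.48 ± 0.07 SE, limma adjusted p = 4.24e-04). The count of falls in that list was 1 without any single vehicle library or treated replicate 3. Of 30 scaffold and adhesion genes 2 rose (6.67%) and 3 fell (10%), near the shares of all tested genes, and Nlgn3, a neuroligin gene, went from 133, 123 and 139 CPM to 79.6, 100.3 and 89.6 CPM.

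Among markers of the other cell types in a slice, the shares that fell in the microglial, vascular, astrocyte and oligodendrocyte lists were 5.88%, 5.88%, 10% and 8.33%, beside 10.3% of all tested genes. None of 17 microglial genes rose and 1 fell, Cx3cr1, the fractalkine receptor gene, from 65.1, 53.1 and 46.98 CPM to 33.7, 41.2 and 39.8 CPM (log2 change -0.51 ± 0.12 SE, limma adjusted p = 0.0126), a call that is lost without vehicle replicate 1 (limma adjusted p = 0.0599). Without vehicle replicate 3 or treated replicate 2, 2 microglial genes fell. The microglial list had a median log2 change of -0.17 and a summed level of 403.6 to 537.9 CPM with vehicle and 351.5 to 458.6 CPM with drugs, which overlap. Of 17 vascular genes 1 fell, Pdgfrb, a pericyte receptor gene, from 26.2, 22.7 and 26.4 CPM to 15.7, 14.8 and 16.1 CPM (log2 change -0.66 ± 0.09 SE, limma adjusted p = 4.86e-04). Of 15 reactive astrocyte genes 1 rose (6.67%, beside 3.79% of all tested genes), Socs3, a brake on cytokine signalling, by 1.09 on the log2 scale. Of 20 astrocyte markers none rose and 2 fell, the transcription factor genes Sox9 and Hes5, by 0.39 and 0.52 on the log2 scale, and the count was 1 without any single vehicle library or treated replicate 1. The Sox9 call was also lost with the replicate number as a block (limma adjusted p = 0.0736). Of 12 oligodendrocyte markers none rose and 1 fell, the transcription factor gene Sox8, by 0.53 on that scale, and without treated replicate 2 the count was 2. The summed astrocyte markers stood at 23030 to 24790 CPM with vehicle and 20810 to 23670 CPM with drugs. Whether shifts in these cells take part in the other results was not tested.

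Genes that rose were short in the genome. Their median span in GENCODE M21 was 19.66 kb with 6 exons, and 11.35 kb with 5 exons past 2-fold, against 27.34 kb with 9 exons over all tested genes. Genes that fell had a usual span, 26.8 kb, but long transcripts, with a median of 4.01 kb against 3.14 kb over all tested genes. Their last exon, which usually holds the 3′ end of the message, had a median length of 2.11 kb, against 1.34 kb over all tested genes and 1.94 kb in genes that rose past 2-fold. These medians rest on the 95.2% to 96.8% of each set with a protein-coding transcript of that symbol. They are descriptions, and whether length takes part in the changes was not tested.

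Most of what the drugs changed in slices labelled Cre also changed in slices without Cre, where limma called 423 genes higher (3.24% of those tested) and 1219 lower (9.34%). The 320 genes that rose in both were 64.6% of the rises with Cre and 75.7% of those without, and the 858 that fell in both were 64.0% and 70.4% of the falls. The contrasts share no library, but they share the limma estimate of spread. The difference between the contrasts passed the threshold for 3 genes (0.023% of those tested), with 568 at an unadjusted p below 0.05. Jun rose less in slices labelled Cre, from 62.2 ± 6.55 CPM to 179.5 ± 41.7 CPM (SD, n = 3), than without Cre, from 49.5 ± 3.11 CPM to 435.9 ± 68.2 CPM. Otud1, a deubiquitinase gene, did not pass with Cre, where it was at 11.9, 12.3 and 11.4 CPM with vehicle and 14.3, 14.4 and 14.2 CPM with drugs, and it rose without Cre to 34.6, 35.5 and 27.3 CPM. Ppp1r10, which encodes a nuclear regulator of protein phosphatase 1, fell with Cre from 98.8, 101 and 101 CPM to 63.8, 67.1 and 66.9 CPM and was at 88.7, 95.6 and 86.05 CPM and 88.6, 89.8 and 89.7 CPM without Cre. All 3 had a limma adjusted p of 0.0197 for the difference, and none passed with the replicate number as a block or without any one of 8 libraries. Those were vehicle replicates 1, 2 and 3 of both genotypes, treated replicate 3 with Cre and treated replicate 2 without Cre.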

How the data were processed

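Polyadenylated RNA of 12 libraries in 4 groups of 3 was analysed. The authors deposited CPM, each column summing to 1000000 over the listed genes. Per the submitters' processing notes, FastQC, Trimmomatic, STAR and DESeq2 were used with mm10. The sources used here give no versions or roles for these, and no counter, gene annotation or strandedness, so a gene and an overlapping or antisense neighbour cannot be told apart. A gene listed at 0 may reflect how reads were counted. Every value was a whole multiple of its column's step within 0.001 of a read, which gave the reads per library.

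The analysed scale was log2(CPM + 1). Testing covered genes averaging 1 CPM or more (13048; 8919 lay below). One mean per group was fitted in limma 3.58.1 (R 4.3.3) to the 12 libraries together, with intensity trend and robust moderation. Two-sided p-values received Benjamini-Hochberg adjustment across tested genes, at a threshold of 0.05. No main test used a count model. The script for the fit was tested on simulated data.

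The genes, gene lists and tests were chosen with earlier results of these data known. Named were Mef2c, the 25 largest rises and 25 largest falls whose groups do not overlap (leaving out sex-linked, predicted and mitochondrial genes), all members of the immediate early, feedback and secreted lists, up to 4 members of each other list with the smallest p, the 5 genes with the smallest p for the difference between genotypes, and cell type markers. Sstr2, Sstr3, Gpr6, Zbtb11, Per2, Cry1, Cry2, Arntl, Crebbp, Ep300, Setd1b, Arid1a, Chrm4 and Sv2b, where outside that rule, were added after their values were seen. Coordinates are from GENCODE M21 (GRCm38, the assembly of mm10), which holds 19609 of the 21967 symbols, and promoters from RefSeq, found for 9854 tested genes.

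Replicate numbers are shared by the groups. Deviations from the group means of same-numbered vehicle and treated libraries labelled Cre correlated at 0.17, 0.14 and 0.48 across genes, all above 0.1. Unlike-numbered ones correlated at -0.01 to -0.25, but deviations cancel within a group, so these values are not independent of the same-numbered ones. The number was taken to pair the libraries, and the main test did not use the pairing. Without Cre the same-numbered correlations were 0.06, 0.41 and 0.07. Alternatives were other pseudocounts, filters, scalings and moderation, a replicate block, only the 6 libraries compared, array weights, leaving out each library, and edgeR 4.0.16 and DESeq2 1.42.0 on recovered reads.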

Additional observations from a re-analysis of the deposited data

Results flagged for a closer look

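The difference between the treatment effects with and without Cre passed the threshold in limma for Jun, Otud1 and Ppp1r10, and each was singled out for that test of the difference itself. The log2 effect with Cre minus that without was -1.61 for Jun, -1.07 for Otud1 and -0.59 for Ppp1r10, and the limma adjusted p was 0.0197 in each case. None of the 3 genes passed with the replicate number as a block, and all 3 lost the call when any of the single libraries named above was left out. The library values that follow are those that gave the p-values and are no separate evidence. In Jun, all 3 treated libraries labelled Cre lay below all 3 treated libraries without Cre. For Otud1 the same held, with 14.2 to 14.4 CPM against 27.3 CPM or more. For Ppp1r10 the treated libraries labelled Cre lay between 63.8 and 67.1 CPM, against 88.6 to 89.8 CPM without Cre.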

How the results depend on the processing

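Of 197 named genes that passed, 167 did so in every alternative setting in which they were tested (25 for 184 genes and 24 for the 13 that the filter at 5 CPM left out), 170 without any 1 library, and 197 kept their sign in each of those settings. The count of 495 rises became 1261 with array weights, 755 with edgeR's TMM and 1020 with DESeq2, and the 1340 falls became 3169 with array weights. Leaving out 1 library gave 372 to 737 rises (372 without Cre vehicle replicate 1, 737 without Cre treated replicate 2) and 898 to 1646 falls (898 without Cre vehicle replicate 1, 1646 without Cre treated replicate 1). The 3 genes that differed between genotypes became 70 with array weights, 42 with DESeq2, and 0 to 6 when 1 library was left out. The cause of these shifts was not tested, except that leaving out a library means fewer samples. With the replicate number as a block, 467 genes rose, 1227 fell and 0 differed between genotypes, and 5 of the 197 named genes lost their call. With only the 6 libraries compared, 426 genes rose and 1020 fell, and 13 of the 197 named genes lost their call. The median-ratio factors ranged from 0.955 to 1.03. With mitochondrially encoded genes removed, their own list gave no value. The array weights were estimated gene by gene, chosen after seeing the data because the default estimate did not converge. Depth limits little here: 3 reads were worth under 0.04 CPM, and 3 libraries a group set the precision.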
